A study of Mus musculus with 16 samples.

Results

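The genes described here carry out MHC class I antigen presentation, the route by which a cell shows fragments of its own proteins to CD8+ T cells. They are 10 of the 55450 genes quantified and were chosen by symbol: the heavy chains *H2-K1* and *H2-D1*, the light chain *B2m*, the peptide transport and loading genes *Tap1*, *Tap2* and *Tapbp*, the immunoproteasome subunits *Psmb8*, *Psmb9* and *Psmb10*, and the transactivator *Nlrc5*. Bulk RNA-seq had been done on primary hepatocytes of wildtype mice in culture to ask how itaconate and lipid loading change transcription in these cells. Mice were males, 8 to 12 weeks of age. Cells were untreated, treated overnight with 10 mM sodium itaconate, treated overnight with a chemically defined lipid mixture at a dilution of 1:10 (fatty acids with cholesterol), or treated with both. All groups, the untreated one included, shared the genotype and a medium with serum, insulin, transferrin and selenium. Each group had 4 libraries with the replicate letters A to D, 16 in all. The labels do not say whether a letter marks a mouse, an isolation or a culture, so the p-values measure the spread between these libraries, which may be technical.

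Class I molecules consist of a heavy chain and beta-2 microglobulin, and reach the cell surface with a short peptide in their groove. Peptides are cut from cytosolic proteins by the proteasome, in which interferon-inducible subunits can take the place of the constitutive catalytic ones, and are pumped into the endoplasmic reticulum by the TAP transporter, where tapasin edits the load. *Nlrc5* encodes the transactivator that, together with factors bound at the promoters of these genes, drives their transcription, and type I and type II interferons raise the whole set. Hepatocytes show class I at a lower surface level than professional antigen-presenting cells and are targets of CD8+ T cells in viral hepatitis.

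Totals of expected counts ran from 22346041 to 35512003 per library after rounding, and 11675 genes that averaged 1 CPM (counts-per-million units after scaling of the library sizes) or more were tested, all 10 class I genes among them. Hepatocyte markers were abundant in every library, with *Alb* between 24204 and 44534 CPM. The 10 macrophage and Kupffer cell markers summed to 183 to 293 CPM in untreated cells, 161 to 248 CPM under itaconate, 233 to 330 CPM under lipid and 216 to 321 CPM under both. Most of that sum was *Cd68* (mean 218 CPM), and the Kupffer cell gene *Clec4f* had a mean of 2.19 CPM. The sum therefore does not stand for the list under lipid. Of the 8 markers tested, lipid without itaconate lowered 4 and raised 1 (median log2 fold change −0.38). With itaconate it lowered 7 and raised 1 (median −0.82). Lipid moved 47.5% and 47.0% of all genes tested in these 2 comparisons. Endothelial markers summed to 13.2 to 25.5 CPM, the 9 lymphocyte and dendritic cell markers to 0.473 to 1.99 CPM with *Nkg7* at 0 in every library, and the stellate list to 16.2 to 25.6 CPM, most of it *Reln*. The cholangiocyte list (335 to 1169 CPM) consisted almost wholly of *Spp1* and *Sox9*, with *Krt19* and *Krt7* at means of 0.224 and 0.00459 CPM. In bulk RNA, fewer cells of a type and less RNA per cell cannot be told apart.

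Of the 10 genes, 7 lie on mouse chromosome 17 in the MHC region (GRCm38, GENCODE release M21). *Tapbp* (ENSMUSG00000024308.15, 33915899 to 33929292, plus strand) and *H2-K1* (ENSMUSG00000061232.16, 33996017 to 34000347, minus) come first, followed by a tight block of *Psmb9* (ENSMUSG00000096727.3, 34181987 to 34187764, minus), *Tap1* (ENSMUSG00000037321.17, 34187553 to 34197225, plus), *Psmb8* (ENSMUSG00000024338.15, 34197721 to 34201454, plus) and *Tap2* (ENSMUSG00000024339.12, 34203527 to 34216321, plus). *H2-D1* (ENSMUSG00000073411.11, 35262730 to 35267499, plus) lies 1046408 bases beyond *Tap2*. *B2m* is on chromosome 2 (ENSMUSG00000060802.8, 122147686 to 122153083, plus), and *Psmb10* (ENSMUSG00000031897.9, 105935735 to 105938444, minus) and *Nlrc5* (ENSMUSG00000074151.13, 94434356 to 94527272, plus) are on chromosome 8. *Psmb9* and *Tap1* point away from each other and their annotated transcripts overlap by 212 bases. The kit keeps strand, but the strand setting of the counting is not given in the sources used here. Reads from that overlap may thus not be told apart. The span of *Tapbp* overlaps the protein-coding gene *Zbtb22* by 3422 bases on the same strand. That of *B2m* overlaps *Patl2* by 5398 bases on the opposite strand. Non-coding genes overlap *Tapbp*, *Psmb8*, *Tap2*, *Psmb10* and *Nlrc5*. How reads were split in these overlaps was not tested. Heavy chains are also close copies of one another and of the *H2-Q* and *H2-T* genes, so the split of reads between *H2-K1*, *H2-D1* and those genes is uncertain.

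The promoters of 8 of the 10 genes were taken from RefSeq (GRCm38.p6) and searched on both strands, over the 250 bases before the start site, for 5 short motifs of the factors that act on class I genes. They are shown because members of the set that share a promoter layout can then be read against their responses. The interferon regulatory factor element AANNGAAA was found before *H2-K1*, *H2-D1* and *B2m* (in 21.3% of all 32851 promoter windows). The CRE-like half-site TGACG, a part of the enhanceosome element, stood before those 3 genes, *Tap1* and *Psmb9* (17.8% of windows). The CCAAT box stood before these 5 and *Tapbp* (33.8%). The NF-kB site (GGG and TTCCC, separated by any 2 bases) stood before *H2-K1* and *H2-D1* (1.53%), and the gamma-activated sequence (GAS) motif TTCNNNGAA before *Psmb8* (7.02%). None of the 5 motifs was found before *Psmb10*. Over a local alignment of 177 bases the *H2-K1* and *H2-D1* windows were identical at 161 (91.0%), with the same order of NF-kB site, interferon element, half-site and CCAAT box. The windows of *Tap1* and *Psmb9* share the 225 bases between their RefSeq start sites, read from opposite strands. The GENCODE spans of the same genes overlap, because RefSeq starts *Psmb9* at 34187330 and GENCODE at 34187764. The RefSeq windows of *Psmb9*, *Tapbp*, *Psmb8* and *H2-D1* lie inside the GENCODE spans of these genes. The sequences of the windows of the class I molecule's 3 genes and of the window that *Tap1* largely shares with *Psmb9* follow 5′ to 3′ on the gene's strand, with motif matches on either strand in capitals, for *H2-K1* (chr17:34000348-34000597, minus), *H2-D1* (chr17:35262844-35263093, plus), *B2m* (chr2:122147437-122147686, plus) and *Tap1* with *Psmb9* (chr17:34187306-34187555, plus).
H2-K1: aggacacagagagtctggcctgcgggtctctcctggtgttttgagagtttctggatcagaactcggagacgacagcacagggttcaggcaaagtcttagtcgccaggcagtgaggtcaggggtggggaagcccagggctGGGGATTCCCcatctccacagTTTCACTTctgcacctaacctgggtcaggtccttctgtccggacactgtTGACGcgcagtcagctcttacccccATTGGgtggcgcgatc
H2-D1: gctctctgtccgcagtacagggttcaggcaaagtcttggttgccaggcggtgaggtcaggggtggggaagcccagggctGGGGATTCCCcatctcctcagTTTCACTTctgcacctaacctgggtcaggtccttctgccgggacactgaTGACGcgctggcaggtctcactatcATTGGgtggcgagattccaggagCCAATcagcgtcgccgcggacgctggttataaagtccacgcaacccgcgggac
B2m: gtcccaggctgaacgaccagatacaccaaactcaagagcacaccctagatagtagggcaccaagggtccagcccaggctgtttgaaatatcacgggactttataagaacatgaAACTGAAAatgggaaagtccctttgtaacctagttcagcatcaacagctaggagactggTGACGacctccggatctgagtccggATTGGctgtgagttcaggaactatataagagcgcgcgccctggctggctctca
Tap1: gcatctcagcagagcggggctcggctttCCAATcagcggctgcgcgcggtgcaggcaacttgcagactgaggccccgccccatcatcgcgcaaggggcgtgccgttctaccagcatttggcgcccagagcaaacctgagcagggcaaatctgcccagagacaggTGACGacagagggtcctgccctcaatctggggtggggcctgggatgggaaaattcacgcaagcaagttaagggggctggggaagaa
A match says only that these letters are present.

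**Figure D1:**
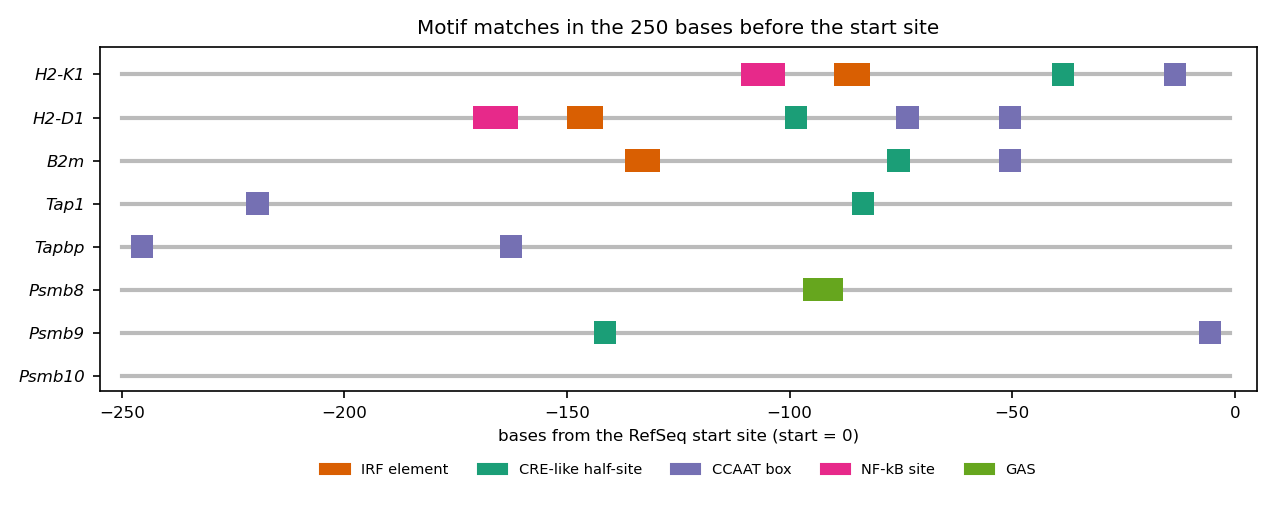
Positions of the motif matches in the 250 bases before the RefSeq start site of 8 class I genes, in bases from the start site; each grey line is 1 promoter and each coloured block 1 match on either strand (for *H2-K1*, the first of 2 annotated start sites). *H2-K1*, *H2-D1* and *B2m* hold the interferon regulatory factor element, *H2-K1* and *H2-D1* the NF-kB site, and *Psmb10* none of the 5 motifs.

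Levels of the 10 genes fell into tiers in these hepatocytes. Per exon length, *B2m* was highest, with a mean over the 16 libraries of 1329 RPKM (CPM divided by the exon length in kilobases), above the heavy chains *H2-D1* (444 RPKM) and *H2-K1* (434 RPKM). Each of these 3 genes ranked above at least 99.0% of the genes tested. Tapasin (*Tapbp*) followed at 51.8 RPKM, *Psmb10* at 17.2, *Tap1* at 12.0, *Tap2* at 11.2 and *Psmb8* at 10.7, with *Nlrc5* at 4.92 and *Psmb9* at 2.56 RPKM. The neighbours *H2-D1* and *H2-K1*, and *Tap1*, *Tap2* and *Psmb8*, were near each other on this scale, and their order was not tested. The order also rests on the annotated exon lengths. In CPM, *Psmb10* (29.4) was below *Tap1* (65.8), *Tap2* (42.5), *Nlrc5* (41.8) and *Psmb8* (36.1), and *B2m* (1143) was below *H2-K1* (1276). *Psmb9*, the lowest, was counted 110 to 360 times per library, and the heavy chains and *B2m* at least 24414 times.

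**Figure D2:**
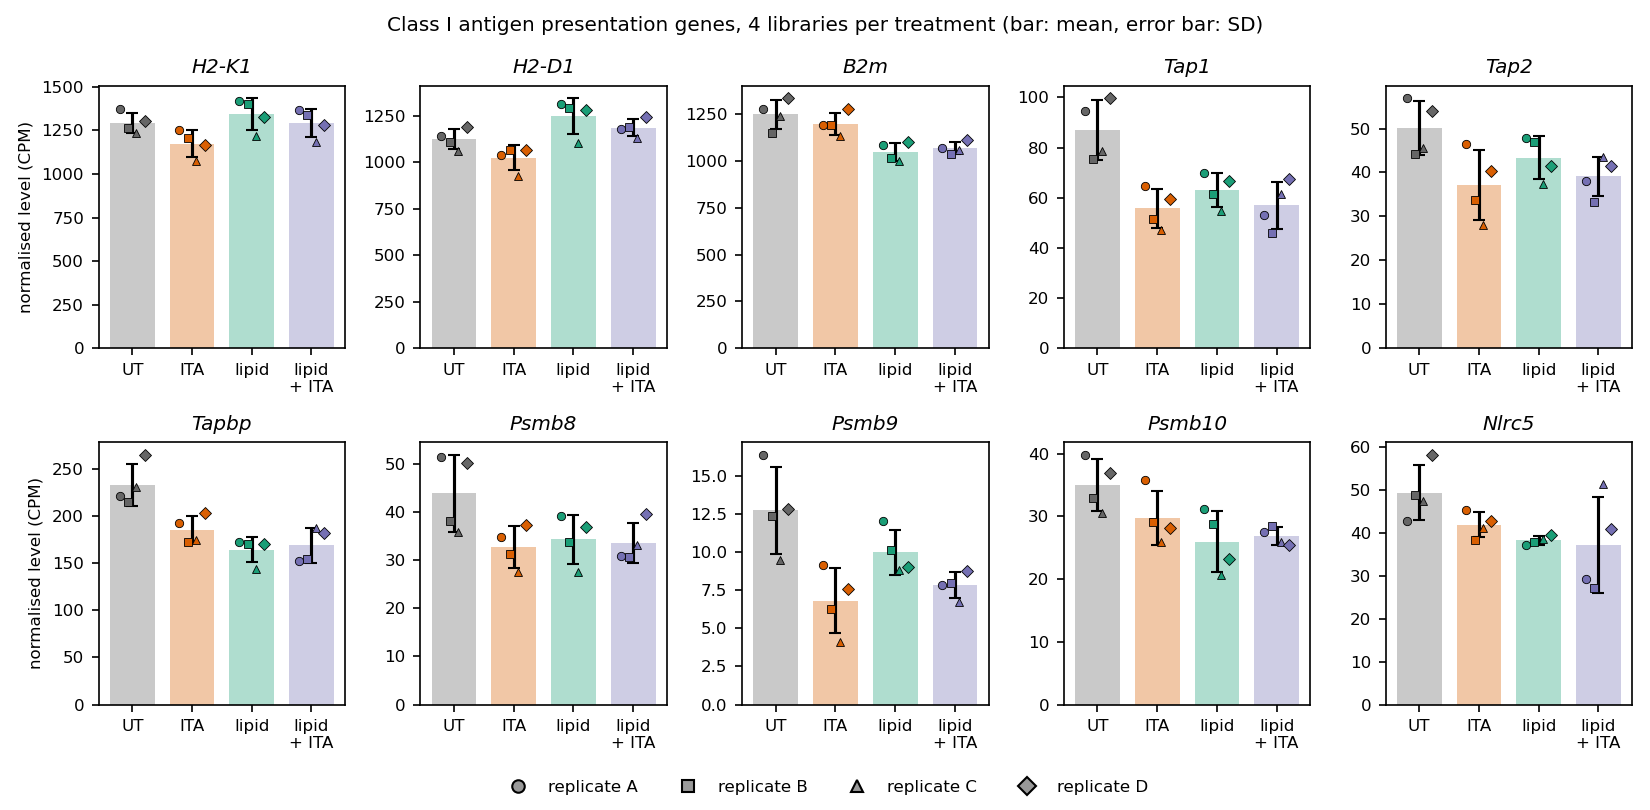
Normalised level in CPM (linear axis from 0) of each of the 10 genes in untreated (UT), itaconate-treated (ITA), lipid-treated and lipid + itaconate-treated hepatocytes; points are libraries with a symbol per replicate letter, bars are means and error bars SDs (n = 4). *Tap1* stood at 75.3 to 99.6 CPM in untreated libraries and at 45.9 to 69.9 CPM in all libraries of the other 3 groups.

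Itaconate without lipid was accompanied by lower transcripts of antigen processing and peptide loading genes, with smaller differences for the class I molecule itself. *Tap1*, *Tap2*, *Tapbp*, *Psmb8* and *Psmb9* fell, by between 20.2% and 46.9%, while *H2-K1*, *H2-D1*, *B2m*, *Psmb10* and *Nlrc5* did not pass the test. Thus 5 of 10 genes were called by edgeR's quasi-likelihood test at an adjusted p under 0.05 (Benjamini-Hochberg over all genes tested), all lower, where 4.91% of all genes tested were called in either direction and 2.95% lower. The median log2 fold change of the 10 was −0.28, and that of all genes tested −0.00.

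*Psmb9*, the inducible catalytic subunit that replaces *Psmb6*, showed the largest difference of the 10. It was at 16.4, 12.4, 9.48 and 12.8 CPM in untreated libraries A to D and at 9.20, 6.31, 4.14 and 7.63 CPM in itaconate-treated libraries A to D. The groups did not overlap, and replicate C was the lowest library of both. Its log2 fold change was −0.91 (SE 0.12, adjusted p = 0.000609). *Tap1*, one of the 2 chains of the peptide pump, was at 94.6, 75.3, 78.8 and 99.6 CPM in untreated and at 64.5, 51.6, 47.3 and 59.6 CPM in itaconate-treated libraries. Every itaconate-treated library lay below every untreated one, and the log2 fold change was −0.64 (SE 0.084, adjusted p = 0.000469).

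Tapasin links TAP to the empty class I molecule. *Tapbp* was at 221, 215, 231 and 265 CPM in untreated and 192, 172, 175 and 203 CPM in itaconate-treated libraries, again without overlap (log2 fold change −0.33, SE 0.07, adjusted p = 0.0148). *Psmb8*, the counterpart of *Psmb5*, was at 51.4, 38.1, 35.8 and 50.2 CPM in untreated and at 34.9, 31.4, 27.4 and 37.4 CPM in itaconate-treated hepatocytes. The lowest untreated library, C, lay within the range of the itaconate-treated ones. Each itaconate-treated library was still below the untreated library of its own letter (log2 fold change −0.41, SE 0.079, adjusted p = 0.00854). *Tap2*, the partner of *Tap1*, behaved likewise with more spread, at 56.8, 44.3, 45.6 and 54.0 CPM in untreated and 46.5, 33.7, 28.0 and 40.4 CPM in itaconate-treated libraries (log2 fold change −0.44, SE 0.11, adjusted p = 0.028). Groups that did not overlap were thus found for 3 of 10 genes, *Tap1*, *Tapbp* and *Psmb9*, against 7.53% of all genes tested.

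The peptide-binding molecule differed less. *H2-K1* was at 1372, 1264, 1236 and 1302 CPM in untreated and 1254, 1205, 1073 and 1169 CPM in itaconate-treated libraries, and *H2-D1* at 1142, 1107, 1060 and 1191 against 1042, 1066, 928 and 1064 CPM. Both were lower in all 4 letters with ranges that overlapped, and neither passed the threshold (log2 fold change −0.14 for each, 95% intervals −0.23 to −0.06 and −0.23 to −0.05, adjusted p = 0.0562 and 0.0787). DESeq2 called both lower (adjusted p = 0.00205 and 0.0153). For *B2m*, which pairs with every heavy chain, the means were 1251 ± 76.9 CPM in untreated and 1199 ± 59.0 CPM in itaconate-treated hepatocytes (SD, n = 4), and the interval of the log2 fold change ran from −0.15 to 0.03 (adjusted p = 0.421). *Psmb10*, the counterpart of *Psmb7*, was lower in all 4 letters without passing the test (35.0 ± 4.15 against 29.7 ± 4.27 CPM, log2 fold change −0.24, SE 0.077, adjusted p = 0.0856). *Nlrc5* was at 49.5 ± 6.44 CPM in untreated and 42.0 ± 2.93 CPM in itaconate-treated libraries, lower in 3 of 4 letters (log2 fold change −0.23, SE 0.12, adjusted p = 0.3).

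These calls depended on the replicate letter and on single libraries. Without the letter in the model, 1 of the 5 genes passed, *Tap1* (adjusted p = 0.0472), and the adjusted p was 0.075 for *Psmb9*, 0.126 for *Tapbp*, 0.178 for *Tap2* and 0.196 for *Psmb8*. With only the 8 libraries compared in the model 9 of 10 genes passed, all but *B2m*. The count was 3 without untreated replicate C, untreated replicate D, itaconate replicate B or itaconate replicate C, with *Tap2* and *Tapbp* the calls lost each time, and 8 without lipid + itaconate replicate C. *Tap2* also missed the threshold without untreated replicate A or B or itaconate replicate D. Totals ran from 27211878 to 35512003 counts in itaconate-treated and from 22346041 to 28619787 in untreated libraries, ranges that overlapped, with the itaconate-treated library the deeper one in letters A and D and the shallower one in B and C. Of 8 macrophage markers tested 1 was called higher and 1 lower. The part of depth or of these markers in the results was not tested.

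**Figure D3:**
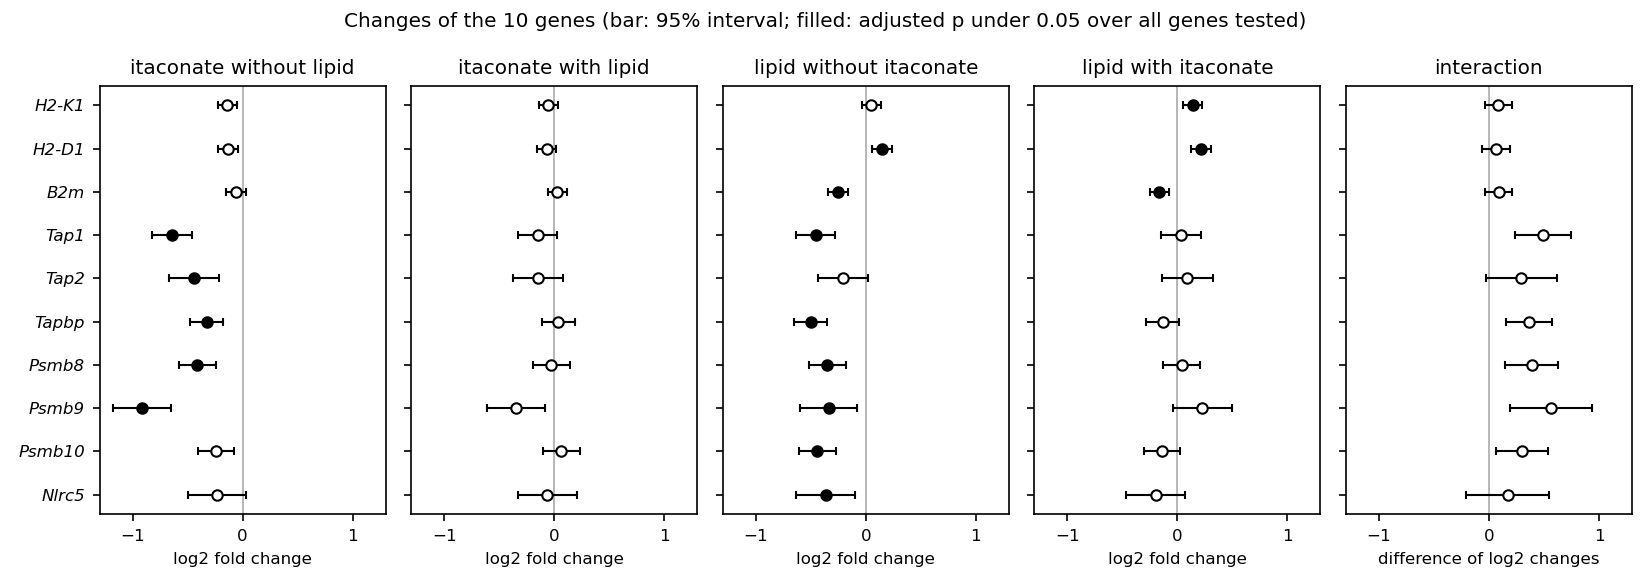
Log2 fold changes of the 10 genes in the 4 comparisons, and the difference between the itaconate changes with and without lipid (interaction); horizontal bars are 95% intervals and filled points passed an adjusted p of 0.05 over all genes tested. With itaconate alone 5 genes lay below 0 past the threshold, in lipid-loaded cells none did, and all 10 interaction estimates were above 0, none past the threshold.

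In lipid-loaded hepatocytes no class I gene passed the test for itaconate. Of the 10 genes 0 were called by edgeR, by DESeq2 and by limma-trend, against 2.58% of all genes tested by edgeR, and 1, *Psmb9*, had an unadjusted p under 0.05, against 17.3% of all. The median log2 fold change of the 10 was −0.06. *Psmb9* was at 12.0, 10.1, 8.82 and 9.03 CPM in lipid-treated libraries A to D and at 7.87, 8.00, 6.73 and 8.79 CPM in lipid + itaconate-treated ones. These ranges did not overlap, a state met by 5.82% of all genes tested and by no other member (log2 fold change −0.35, SE 0.12, adjusted p = 0.155).

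For the other processing and loading genes the replicate letters went apart. *Tap1* was at 69.9, 61.5, 54.6 and 66.9 CPM in lipid-treated and 53.2, 45.9, 61.4 and 67.5 CPM in lipid + itaconate-treated libraries, so that it was lower with itaconate in letters A and B and higher in C and D (log2 fold change −0.15, 95% interval −0.33 to 0.03, adjusted p = 0.375). *Tap2*, *Tapbp*, *Psmb8*, *Psmb10* and *Nlrc5* split between the letters in the same way, *Tap2* with 41.5 CPM in both libraries of D. *Nlrc5* had the widest spread, with 37.2, 37.9, 38.7 and 39.5 CPM under lipid and 29.4, 27.2, 51.4 and 41.0 CPM under lipid + itaconate. Within a letter, 10 of the 10 genes were lower with itaconate in A and 9 in B, with median log2 differences of −0.26 and −0.14, whereas 8 were higher in C and 7 in D, with medians of 0.20 and 0.02. Without lipid, the same count was 9 or 10 lower genes in every letter, with medians from −0.40 to −0.18.

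2 libraries of this comparison bear on these values. Lipid + itaconate replicate C had the highest *Nlrc5*, *Tap2* and *Tapbp* of its group, and without it 1 gene, *Tap1*, passed (log2 fold change −0.26, adjusted p = 0.0377) and the median of the 10 was −0.10. Without lipid + itaconate replicate B none passed and the median was −0.04. The 95% intervals with all libraries leave room for changes of either sign, from −0.37 to 0.08 for *Tap2*, −0.11 to 0.19 for *Tapbp*, −0.20 to 0.15 for *Psmb8*, −0.10 to 0.23 for *Psmb10* and −0.33 to 0.21 for *Nlrc5*. They were narrower for *H2-K1* (−0.14 to 0.03), *H2-D1* (−0.16 to 0.02) and *B2m* (−0.06 to 0.12).

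**Figure D4:**
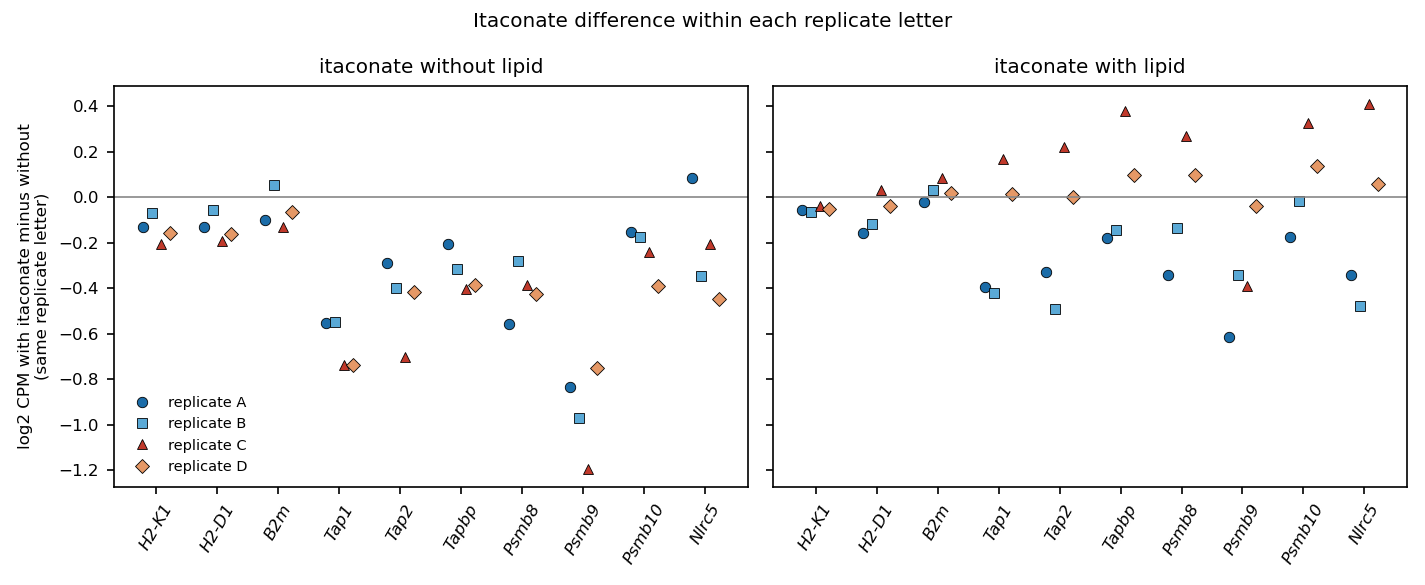
Difference in log2 CPM between the library with itaconate and the library without it of the same replicate letter, for each of the 10 genes, without lipid (left) and with lipid (right). Without lipid the letters lie together, mostly below 0, and with lipid letters A and B lie below C and D for *Tap1*, *Tap2*, *Tapbp*, *Psmb8*, *Psmb10* and *Nlrc5*.

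The difference between the itaconate effects with and without lipid was tested as an interaction. All 10 estimates were positive, that is, less negative or more positive in lipid-loaded cells, with a median of 0.30 against 0.00 over all genes tested. Of the 10, 0 passed at an adjusted p under 0.05 in edgeR, where 1 gene in the whole table (0.00857%) passed, and 5 had an unadjusted p under 0.05, against 8.60% of all genes tested. These were *Tap1* (0.49, SE 0.12, adjusted p = 0.241), *Psmb9* (0.56, SE 0.17, adjusted p = 0.357), *Psmb8* (0.39, SE 0.11, adjusted p = 0.335), *Tapbp* (0.36, SE 0.099, adjusted p = 0.288) and *Psmb10* (0.30, SE 0.11, adjusted p = 0.449). In DESeq2 *Tap1* passed (adjusted p = 0.0319), and without a filter on low counts 4 genes did in edgeR, *Tap1*, *Tapbp*, *Psmb8* and *Psmb9*. The itaconate effect on the class I genes was therefore not shown to depend on lipid at the threshold set.

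Lipid without itaconate was also accompanied by lower processing and loading transcripts, and in addition by lower *B2m*, *Psmb10* and *Nlrc5*, but by higher *H2-D1*. In edgeR 7 of 10 genes fell and 1 rose, against 23.7% and 23.8% of all genes tested, since lipid moved 47.5% of the table. The median log2 fold change of the 10 was −0.34. This comparison and that of itaconate without lipid share the 4 untreated libraries, so their values for a gene are not independent. Set side by side, the log2 fold changes under lipid and under itaconate were −0.46 and −0.64 for *Tap1*, −0.50 and −0.33 for *Tapbp*, −0.34 and −0.91 for *Psmb9*, and 0.15 and −0.14 for *H2-D1*.

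Among the loading genes, *Tapbp* was at 173, 170, 144 and 171 CPM in lipid-treated libraries, below all untreated ones (215 to 265 CPM), with an adjusted p of 3.9e-05 (SE 0.07). *Tap1* was at 54.6 to 69.9 CPM, likewise without overlap (SE 0.084, adjusted p = 0.000392). *Tap2* was at 43.4 ± 4.90 against 50.2 ± 6.18 CPM and did not pass (log2 fold change −0.20, SE 0.11, adjusted p = 0.128). The immunoproteasome subunits all fell. *Psmb10* was at 31.1, 28.8, 20.7 and 23.2 CPM under lipid and 39.8, 32.9, 30.5 and 36.9 CPM in untreated libraries, where a single lipid-treated library, A, exceeded the lowest untreated one (log2 fold change −0.44, SE 0.078, adjusted p = 0.000297). *Psmb8* (−0.35, SE 0.08, adjusted p = 0.00211) and *Psmb9* (−0.34, SE 0.12, adjusted p = 0.0311) were lower in all 4 letters.

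The light chain and *H2-D1* moved in opposite directions under lipid. *B2m* was at 1083, 1018, 1000 and 1100 CPM in lipid-treated and 1279, 1152, 1238 and 1334 CPM in untreated libraries, without overlap (log2 fold change −0.25, SE 0.041, adjusted p = 0.000152). *H2-D1* was at 1314, 1291, 1105 and 1280 CPM under lipid, above the untreated library of each letter (1142, 1107, 1060 and 1191 CPM), and replicate C was far below the other lipid-treated libraries (log2 fold change 0.15, SE 0.042, adjusted p = 0.00972). *H2-K1* did not pass (0.05, 95% interval −0.03 to 0.14, adjusted p = 0.306). *Nlrc5* fell from 42.9, 48.9, 47.6 and 58.3 CPM to 37.2, 37.9, 38.7 and 39.5 CPM, without overlap (log2 fold change −0.37, SE 0.13, adjusted p = 0.0257). *B2m*, *Tap1*, *Tapbp* and *Nlrc5* were the 4 genes whose groups did not overlap, against 32.5% of all genes tested. Without the letter in the model 4 genes passed, *Tap1*, *Tapbp*, *Psmb10* and *B2m*, while *H2-D1*, *Psmb8*, *Psmb9* and *Nlrc5* did not (adjusted p = 0.0904, 0.0506, 0.174 and 0.0619). Leaving out 1 library ended the call of *Psmb9* (untreated or lipid replicate A, B or D) or of *Nlrc5* (untreated replicate B or D, lipid replicate C or D). Of the macrophage markers 4 of 8 were lower and 1 higher under lipid, and both cholangiocyte markers tested, *Spp1* and *Sox9*, were lower. Their part in these results was not tested.

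With itaconate present, both heavy chains rose under lipid, the light chain fell and no call was made among the other 7 genes. *H2-D1* rose from 1042, 1066, 928 and 1064 CPM under itaconate to 1180, 1191, 1131 and 1246 CPM under lipid + itaconate, without overlap (log2 fold change 0.21, SE 0.042, adjusted p = 0.000836). *H2-K1* was at 1369, 1340, 1186 and 1280 CPM against 1254, 1205, 1073 and 1169 CPM, higher in all 4 letters with overlapping ranges (0.14, SE 0.04, adjusted p = 0.0101). Its call was lost with no replicate block (adjusted p = 0.123) and with only the libraries compared (adjusted p = 0.0621). *B2m* fell, from 1132 to 1276 CPM in itaconate-treated libraries to 1040 to 1114 CPM, without overlap (−0.16, SE 0.041, adjusted p = 0.0046). In all 3 of 10 genes were called by edgeR, against 47.0% of all genes tested (23.5% higher and 23.5% lower), and the groups of 2 of 10 did not overlap, against 31.4%. The 2 lipid comparisons have no library in common, but each shares a group with an itaconate comparison.

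For the processing and loading genes the log2 fold changes under lipid with itaconate ran from −0.14 for *Psmb10* to 0.23 for *Psmb9*, and *Nlrc5* was at −0.20 (SE 0.13, adjusted p = 0.217). *Tap1* stood at 0.03 (95% interval −0.15 to 0.21) and *Psmb8* at 0.04 (−0.13 to 0.21). Without lipid + itaconate replicate C, *Tapbp* (−0.22, adjusted p = 0.00689), *Psmb10* (−0.20, adjusted p = 0.0498) and *Nlrc5* (−0.39, adjusted p = 0.00257) were called lower as well, so that 6 genes passed. Without lipid + itaconate replicate A, *Psmb9* was called higher (0.35). In this comparison 7 of 8 macrophage markers were lower and 1 higher, and their part was not tested.

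The immunoproteasome subunits can be read against the constitutive subunits they replace. As a share of the pair per exon length, *Psmb9* made up 4.85 ± 0.89% of *Psmb9* plus *Psmb6* in untreated and 2.64 ± 0.832% in itaconate-treated hepatocytes, 3.76 ± 0.345% under lipid and 3.02 ± 0.319% under both (SD, n = 4). The untreated libraries (3.73 to 5.66%) lay above all itaconate-treated (1.68 to 3.58%) and all lipid + itaconate-treated ones (2.76 to 3.47%). The *Psmb8* share of *Psmb8* plus *Psmb5* was 7.67 ± 1.42%, 5.86 ± 0.732%, 6.31 ± 0.716% and 6.00 ± 1.10% in the same order of groups, with ranges that overlapped. *Psmb10* made up 32.8 ± 2.39% of its pair with *Psmb7* in untreated cells, 29.3 ± 2.54% under itaconate, 26.1 ± 2.52% under lipid and 26.9 ± 0.527% under both. This was the largest share per exon length, but the order of the pairs rests on the annotated exon lengths (1705 bases for *Psmb10*, 3381 for *Psmb8*). In CPM, untreated means were 35.0 for *Psmb10* beside 143 for *Psmb7*, and 43.9 for *Psmb8* beside 141 for *Psmb5*. The shares of different pairs are thus not comparable. The constitutive subunit dominated each pair in every group.

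**Figure D5:**
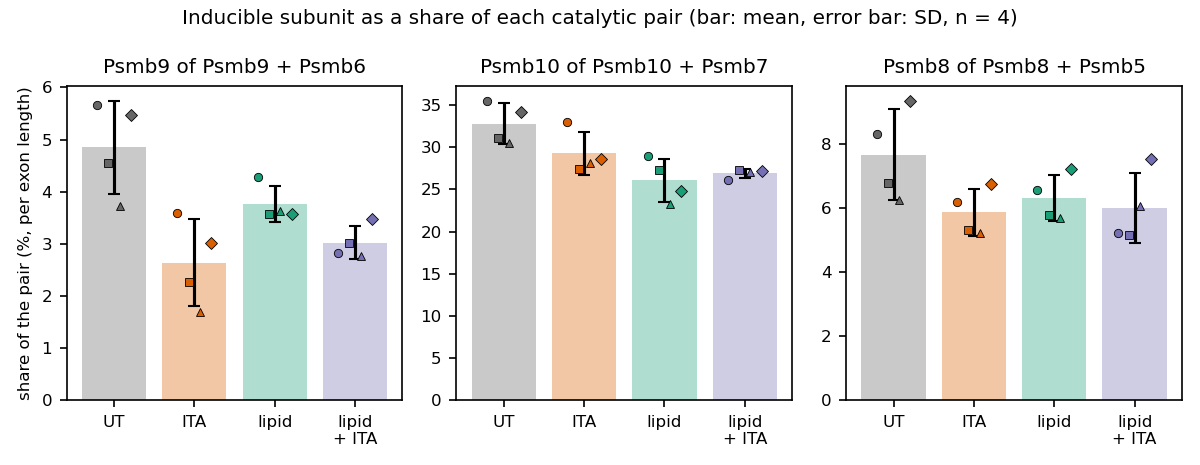
Inducible subunit as a percentage of its pair with the constitutive counterpart, per exon length, by treatment; points are libraries (symbols by replicate letter as in the plot of CPM levels), bars are means and error bars SDs (n = 4), with the axis from 0. The *Psmb9* share was 4.85% in untreated and 2.64% in itaconate-treated hepatocytes, and untreated libraries did not overlap with itaconate-treated ones.

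Other genes of the pathway were read from lists drawn up by function. Of 16 class I-like and other heavy chain genes, 13 passed the filter, and with itaconate alone 3 fell and none rose (median log2 fold change −0.17, with 4.91% of all genes called). With itaconate in lipid-loaded cells 0 passed in edgeR, against 2.58% of all genes, and 0 had an unadjusted p under 0.05. The 3 were the non-classical genes *H2-T22* (−0.35, adjusted p = 0.0105), *H2-T23* (−0.26, adjusted p = 0.00268) and *H2-Q6* (−0.19, adjusted p = 0.0341), named after their values were seen. Lipid with itaconate gave 7 higher and 1 lower (23.5% of all genes each way), with *H2-T10* (0.60, adjusted p = 0.0079), *H2-Q7* (0.42, adjusted p = 4.69e-05) and *H2-M3* (0.40, adjusted p = 0.0211) among the higher ones. The level of *H2-M3* was low, with means of 3.38 CPM under itaconate and 4.46 CPM under lipid + itaconate. *Fcgrt*, the neonatal Fc receptor, which also pairs with beta-2 microglobulin, was lower under lipid both without (−0.45, adjusted p = 1.99e-05) and with itaconate (−0.38, adjusted p = 9.67e-05). Lipid without itaconate gave 1 higher and 2 lower of the 13 (median 0.05), beside 23.8% of all genes tested higher and 23.7% lower.

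Of 12 genes of peptide loading, trimming and chaperoning, itaconate alone lowered 1, the tapasin relative *Tapbpl* (−0.29, adjusted p = 0.0366, named after its value was seen), and raised none. Of all genes tested, 4.91% were called there in either direction and 2.95% lower. In lipid-loaded cells 0 passed for itaconate in edgeR, against 2.58% of all genes, and 0 had an unadjusted p under 0.05, against 17.3%. Lipid lowered 9 and raised 1 without itaconate (median −0.23) and lowered 7 and raised 1 with it (median −0.17), beside 23.7% of all genes lower and 23.8% higher without itaconate and 23.5% each way with it. Calreticulin (*Calr*, −0.58, adjusted p = 2.36e-06), the trimming peptidase *Erap1* (−0.39, adjusted p = 1.72e-05) and the disulfide isomerase *Pdia3* (−0.36, adjusted p = 0.000137) were among the lower genes without itaconate, and the peptidase *Thop1*, which degrades cytosolic peptides, was the higher one (0.57, adjusted p = 3.05e-07). Of 8 genes of the proteasome activators, maturation factor and constitutive subunits, itaconate raised 1, the activator *Psme4*, both without (0.20, adjusted p = 0.0108) and with lipid (0.18, adjusted p = 0.0278). Itaconate moved 4.91% of all genes tested without lipid and 2.58% with lipid. Lipid without itaconate lowered 3, *Psme1* (−0.32, adjusted p = 0.000533), *Psme4* (−0.29, adjusted p = 3.22e-05) and *Psme2* (−0.20, adjusted p = 0.00854), and raised none. With itaconate, lipid lowered *Psme4* (−0.31, adjusted p = 2.16e-05) and raised the maturation factor *Pomp* (0.12, adjusted p = 0.0296).

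Class II genes present peptides from endocytosed proteins in professional antigen-presenting cells. Of 10, 4 passed the filter, and 1 call was made in the 4 comparisons, *Ctss*, the cathepsin that trims the invariant chain, lower under lipid with itaconate (−0.62, adjusted p = 0.00291). Its level was low, with means of 3.55 CPM under itaconate and 2.31 CPM under lipid + itaconate. Of all genes tested, 47.0% were called in that comparison, 47.5% for lipid alone, and 4.91% and 2.58% for itaconate without and with lipid. For itaconate with lipid 1 of the 4 had an unadjusted p under 0.05, against 17.3% of all genes tested. Of 26 regulators (enhanceosome subunits and interferon pathway genes), all passed the filter. Lipid raised 3 and lowered 17 without itaconate (median −0.25) and raised 4 and lowered 15 with it (median −0.18). Of all genes tested, lipid moved 47.5% without itaconate and 47.0% with it. Itaconate raised 1 and lowered 2 without lipid (median −0.01), and raised 3 and lowered 1 with lipid (median 0.03). It moved 4.91% of all genes tested without lipid and 2.58% with lipid. In lipid-loaded cells 10 of the 26 had an unadjusted p under 0.05 for itaconate, against 17.3% of all genes tested. *Irf1*, an interferon-induced activator of class I promoters, fell under lipid (−0.72, adjusted p = 2.94e-07, and −0.43, adjusted p = 4.55e-05, with itaconate) and did not pass under itaconate (−0.09, adjusted p = 0.407, and 0.20, adjusted p = 0.0993, with lipid). The feedback inhibitor *Socs1* fell under lipid (−1.47, adjusted p = 7.69e-05, and −1.49, adjusted p = 7.13e-05, with itaconate). Its level was low, with means of 2.68 CPM in untreated and 0.941 CPM in lipid-treated cells. *Socs3*, another feedback inhibitor, fell under lipid (−0.77, adjusted p = 2.96e-07, and −0.46, adjusted p = 3.63e-05, with itaconate) and rose under itaconate in lipid-loaded cells (0.41, adjusted p = 0.005).

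The genes whose levels followed the 10 class I genes most closely were found by Pearson's correlation of log2 CPM with the mean standardised log2 CPM of the 10, over the 16 libraries after removal of letter means, among the 9633 genes that averaged 5 CPM or more. They were *Herc6* (r = 0.974), *Nmi* (0.974), *Mov10* (0.963), *Dglucy* (0.952) and *Cmtr1* (0.950). The libraries share treatments and depth, so these values are a description. *Herc6*, an interferon-induced ubiquitin ligase, had log2 fold changes of −0.64 and −0.08 under itaconate without and with lipid and of −0.45 and 0.11 under lipid without and with itaconate. *Nmi*, an interferon-inducible gene, had −0.37, −0.12, −0.24 and 0.01 in the same order.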

How the data were processed

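RNA from 16 samples of primary hepatocytes (4 treatments, 4 libraries each) was sequenced from a stranded mRNA library. Per the submitters' processing notes, bcl2fastq 2.20, Cutadapt 1.18, STAR 2.7.0f, Picard 2.18.26, RSEM 1.3.1 and the mm10 build were used. The authors deposited RSEM expected counts per gene, without normalization, in which a read that fits several genes is shared among them (5.41% of values were not whole). All 55450 identifiers matched GENCODE M21.

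Expected counts were rounded, and 11675 genes that averaged 1 CPM or more across all 16 libraries entered the tests. In R 4.3.3, edgeR 4.0.16 (TMM, quasi-likelihood test) was fitted to all 16 libraries with treatment and replicate letter, and p-values were adjusted by Benjamini-Hochberg over all genes tested (threshold 0.05). CPM used the TMM library sizes, log2 CPM a prior count of 0.5, and RPKM the union of exons. Motifs were searched in RefSeq promoters.

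Pairing by letter was checked from the correlation of deviations from group means. The 24 same-letter correlations were 0.144 to 0.469 with a median of 0.263. The 72 others were −0.436 to 0.178 with a median of −0.114, so the ranges overlapped. The letter, taken from the labels, was therefore kept as a block.

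The members and lists were chosen with earlier results of these data known. All 10 members are named; from each related list, at most 4 genes with the largest change among those called, and the 5 genes of most like pattern. *H2-T22*, *H2-T23*, *H2-Q6* and *Tapbpl* were named besides these, after their values were seen. For 1 gene of the related lists, values are not reported here. Alternatives were no replicate block, RLE, filterByExpr, no filter, only the libraries compared, DESeq2 1.42.0, limma-trend (limma 3.58.1) and leaving out each library. Among the 10, counts per library ran from 110 (*Psmb9*) to 48153 (*H2-K1*), and *Psmb9* and *Nlrc5* had the largest SEs.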

Additional observations from a re-analysis of the deposited data

Results flagged for a closer look

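Of 40 groups of 4 libraries (10 genes in 4 treatments), 2 had a library far from the others by Dixon's criterion, about the number that chance gives, since chance marks about 1 in 20 groups. Both were replicate C of the lipid-treated hepatocytes, the lowest of its group. *H2-D1* was at 1105 CPM there and at 1280 to 1314 CPM in the other lipid-treated libraries. *Tapbp* was at 144 CPM there and at 170 to 173 CPM in the others.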

How the results depend on the processing

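Across the single-gene results, 1068 values under an alternative kept their direction and their side of the threshold, 31 lost and 27 gained the threshold, and 14 changed sign. For itaconate without lipid, where 5 of 10 genes were called, 1 was called with no replicate block and 9 with only the libraries compared, and 3 to 8 with 1 library left out. For itaconate with lipid (0 called), 0 to 1 were called with 1 library left out. For lipid without itaconate (8 called), 4 were called with no replicate block. For lipid with itaconate (3 called), leaving out 1 library gave 3 to 6. For the interaction (0 called), 4 were called with no filter and 1 by DESeq2. With no replicate block, *H2-K1* under lipid with itaconate also lost its call (adjusted p = 0.123); the other calls lost with it are given with their results. The letter pairs libraries by the correlation check alone, and what it marks is not stated. Changes of sign came with 1 library left out and concerned values near 0. Under itaconate with lipid the log2 fold changes then ran from −0.047 to 0.094 for *Tapbp*, from −0.11 to 0.070 for *Psmb8* and from −0.26 to 0.048 for *Nlrc5*. Under lipid with itaconate they ran from −0.072 to 0.12 for *Tap1*, from −0.047 to 0.18 for *Tap2* and from −0.049 to 0.13 for *Psmb8*, and for the interaction of *Nlrc5* from −0.024 to 0.27. Over all genes, the 573 calls for itaconate without lipid became 23 with no replicate block, 1865 with only the libraries compared, 1091 with no filter and 149 to 1047 with 1 library left out. The 301 calls for itaconate with lipid became 9, 13, 725 and 59 to 889 in the same order, with 585 in DESeq2. The interaction, with 1 call, had 231 with no filter and 99 in DESeq2. The cause of these shifts was not tested.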
